A study of Homo sapiens with 9 samples.

Results

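The mitotic kinesins examined here are 10 motor protein genes of spindle assembly and cytokinesis: KIF11, KIF14, KIF15, KIF18A, KIF20A, KIF20B, KIF22, KIF23, KIF2C and KIF4A. They were picked by name from the 58734 Ensembl genes of a count table. All 10 were found, and all 10 passed the filter on low counts with 16686 genes in all, so no member was lost to the filter. The table comes from poly-A selected, stranded RNA sequencing of HEK293T, an established line from human embryonic kidney that expresses SV40 large T antigen. SIN3A knockdown cells received siRNA against SIN3A, SIN3B knockdown cells received siRNA against SIN3B, and control cells received a control siRNA, each at 10 nM for 36 h with a lipid transfection reagent and with 3 libraries a group. The group of each library was read from its title, because the treatment text names the control siRNA for every library. The 2 knockdowns share the same 3 control libraries, and the labels do not say that the libraries of a group came from separate cultures, so the p-values reflect library-to-library spread alone, and that spread may be technical.

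Kinesins walk along microtubules or take them apart at the expense of ATP. In dividing cells some slide spindle microtubules apart, some move or align chromosomes, and some build the midzone on which the cleavage furrow and the midbody depend. Most of these genes are transcribed late in the cell cycle. The MuvB core of the DREAM complex binds the cell cycle homology region (CHR) of their promoters and keeps them low in resting cells, and MYBL2 and FOXM1 join MuvB in cycling cells. SIN3A and SIN3B are paralogous scaffolds of histone deacetylase corepressor complexes, and SIN3B has been linked to repression of cell cycle genes in resting cells.

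The promoter words known for late cell cycle genes are shown first, because they are a feature of the kinesins that the choice of genes did not use. RefSeq windows of GRCh38.p14, which run from 250 bases before to 50 bases after a transcript start, were found for all 10 genes. They were searched on both strands for the CHR words TTTGAA or TTCGAA, for CCAAT, and for the E2F-type words TTTGGCG or TTTCCCG or TTTCGCG or TTTGCCG. The sequences below are 5′ to 3′ on the strand of the gene. Capitals mark a CHR word or a CCAAT word in either orientation, and in KIF15 they also cover an E2F-type word that abuts the CHR word.
KIF11, chr10:92593057-92593122, plus strand: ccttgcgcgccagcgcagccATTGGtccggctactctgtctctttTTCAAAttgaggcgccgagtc
KIF15, chr3:44761714-44761779, plus strand: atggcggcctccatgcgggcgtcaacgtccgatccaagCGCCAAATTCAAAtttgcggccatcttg
KIF18A, chr11:28108146-28108211, minus strand: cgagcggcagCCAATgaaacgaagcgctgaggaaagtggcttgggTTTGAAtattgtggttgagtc
KIF22, chr16:29790679-29790744, plus strand: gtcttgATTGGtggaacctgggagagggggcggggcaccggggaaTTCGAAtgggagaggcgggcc
KIF4A, chrX:70290025-70290090, plus strand: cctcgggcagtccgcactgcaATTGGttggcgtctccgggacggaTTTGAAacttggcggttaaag
KIF20A, chr5:138179003-138179068, plus strand: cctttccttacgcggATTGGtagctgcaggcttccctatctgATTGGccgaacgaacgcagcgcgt
KIF23, chr15:69414249-69414314, plus strand: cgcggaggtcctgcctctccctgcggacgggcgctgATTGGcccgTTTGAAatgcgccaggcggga
KIF20B, chr10:89701569-89701634, plus strand: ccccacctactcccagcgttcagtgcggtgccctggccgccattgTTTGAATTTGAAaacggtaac
KIF14, chr1:200620730-200620795, minus strand: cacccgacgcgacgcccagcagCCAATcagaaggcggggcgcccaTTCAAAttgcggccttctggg

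A CHR word lay in the window of 8 of the 10 kinesins, all but KIF20A and KIF2C, and in 16.4% of the 34796 RefSeq windows. CCAAT was found for 8 of the 10, all but KIF15 and KIF2C, and in 34.6% of all windows. An E2F-type word was found for KIF11 and KIF15 and in 8.66% of all windows. The CHR word began 10 bases before the start of KIF18A, at position -10, and no farther than position -55 in KIF23, with the KIF11, KIF15, KIF22 and KIF4A words between them at -28, -35, -27 and -34. The KIF14 word lay at +2, and KIF20B held 2 adjoining words at +25 and +31. KIF22 has a second RefSeq start, from which the same word lies at -244. KIF20A held 2 CCAAT words at -94 and -67, and no searched word was found in the KIF2C window. A match is a description of the letters only.

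**Figure D1:**
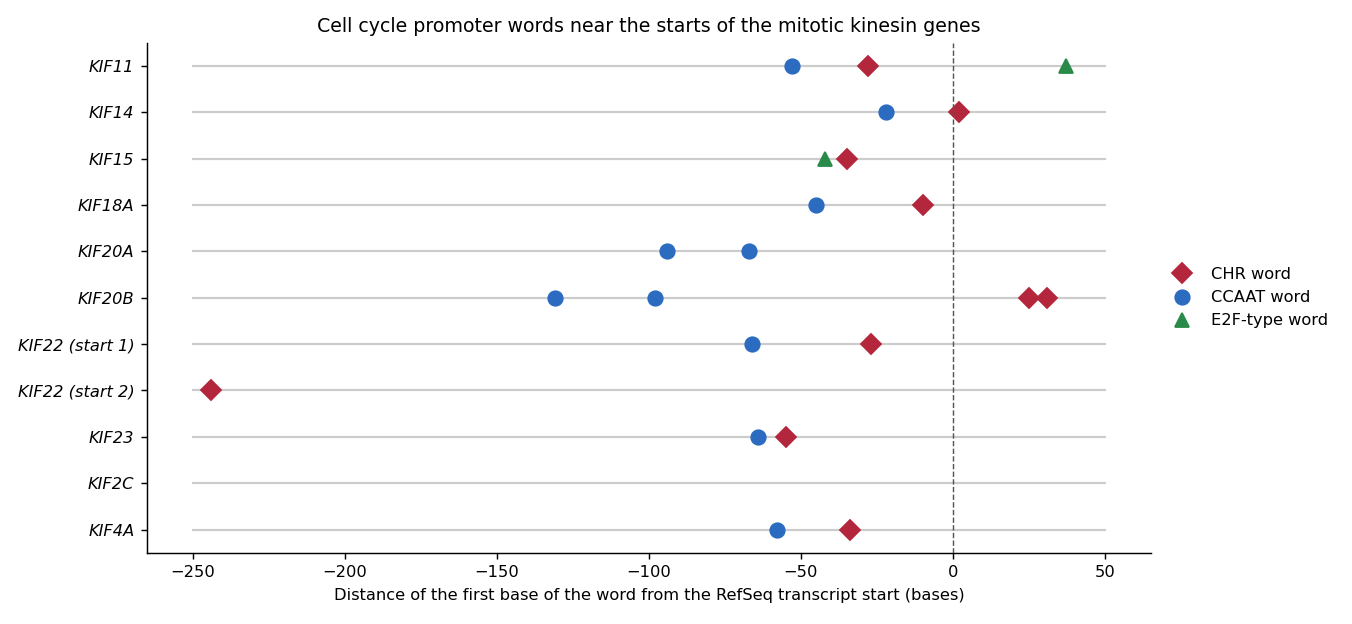
Positions of CHR words (red diamonds), CCAAT words (blue circles) and E2F-type words (green triangles) in the RefSeq promoter windows of the 10 kinesin genes, in bases from the transcript start (dashed line). CHR words sit within 55 bases of a start in 8 genes, and the KIF2C window holds none of the 3 kinds.

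The libraries held 22542798 to 27084884 counts. At least 98% of the counts above 0 in each library could be divided by 4, and a floor of 3 such steps, 12 counts, accordingly lay at 0.442 to 0.552 CPM and covers counting error only. Levels are given as CPM, with library sizes adjusted by the TMM method of edgeR. SIN3A fell to 47.3 ± 2.50 CPM in SIN3A knockdown cells, against 145 ± 4.0 CPM in control cells (SD, n = 3 each), a log2 fold change of -1.62 (edgeR quasi-likelihood test, adjusted p = 2.22e-11). SIN3B fell to 55.1 ± 3.62 CPM in SIN3B knockdown cells, against 96.2 ± 4.71 CPM in control cells, a log2 fold change of -0.80 (edgeR quasi-likelihood test, adjusted p = 2.25e-06). All 5 genes on a list of HEK293 markers were detected in all 3 groups, and they summed to 1046 to 1307 CPM in SIN3A knockdown, 941 to 1006 CPM in SIN3B knockdown and 1214 to 1343 CPM in control libraries. Of these, NEFM fell by 0.79 after SIN3A knockdown and by 0.83 after SIN3B knockdown, and NEFL fell by 0.79 after SIN3B knockdown. The 3 SIN3A knockdown libraries lay farther apart than the others. A chi-square statistic of replicate pairs, on counts divided by 4, was 3.53 to 7.37 per degree of freedom in this group. It was 1.42 to 1.98 in the other groups. The 5 epithelial markers, EPCAM, CDH1, KRT5, KRT14 and TP63, summed to 3.75 to 6.73 CPM in SIN3A knockdown, 12.4 to 13.4 CPM in SIN3B knockdown and 13.8 to 14.6 CPM in control libraries. The 5 fibroblast markers summed to 26.1 to 35.7 CPM in SIN3A knockdown, 24.8 to 29.6 CPM in SIN3B knockdown and 24.4 to 25.9 CPM in control libraries, nearly all of it COL1A1, which rose by 0.39 after SIN3A knockdown, while COL1A2 and DCN were at 0. The 5 haematopoietic markers summed to 1.91 to 5.70 CPM over all libraries, with PTPRC, CD3E and HBB at 0. The part of these shifts in the kinesin results was not tested.

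After SIN3B knockdown 8 of the 10 kinesins rose and none fell, and after SIN3A knockdown 5 rose and none fell. Of all genes, 12% rose and 11.6% fell by the same test after SIN3B knockdown, and 12.2% and 10.8% after SIN3A knockdown. KIF11, KIF14, KIF18A, KIF20B and KIF23 rose in both knockdowns, and KIF15, KIF20A and KIF4A rose after SIN3B knockdown and did not pass the test after SIN3A knockdown. In the direct comparison 7 kinesins were lower in SIN3A knockdown than in SIN3B knockdown cells, beside 12.6% of all genes. The range of the changes was wide, since KIF14 more than doubled after SIN3B knockdown, at 232% of control, while KIF22 and KIF2C stood at 113% and 112% of control and missed the threshold. A change in a bulk sample can come from the number of cells in mitosis or from RNA per cell, and the 2 cannot be told apart here.

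KIF11 (Eg5) is a tetrameric motor that slides antiparallel microtubules apart and makes the spindle bipolar. Its level was 126, 112 and 118 CPM in the SIN3A knockdown libraries, 145, 199 and 190 CPM in the SIN3B knockdown libraries, and 95.8, 92.6 and 86.2 CPM in the control libraries. The 3 groups did not overlap, with SIN3B knockdown highest and control lowest, and replicate 1 of SIN3B knockdown lay below the other SIN3B knockdown libraries. KIF11 rose by a log2 fold change of 0.38 ± 0.09 (SE) after SIN3A knockdown (edgeR quasi-likelihood test, adjusted p = 0.00686) and by 0.96 ± 0.09 after SIN3B knockdown (adjusted p = 6.12e-07).

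KIF15 is the motor that can hold a bipolar spindle open when KIF11 is blocked. Its level was 47.4, 36.9 and 36.8 CPM in SIN3A knockdown, 43.6, 54.2 and 59.2 CPM in SIN3B knockdown, and 42.0, 42.7 and 38.4 CPM in control libraries. SIN3A knockdown libraries lay on both sides of the control libraries, while all SIN3B knockdown libraries lay above them, the lowest by under 1 CPM. The log2 fold change was 0.35 ± 0.12 after SIN3B knockdown (edgeR quasi-likelihood test, adjusted p = 0.0354) and -0.03 ± 0.12 after SIN3A knockdown (adjusted p = 0.907). The SIN3B call held in 10 of 21 alternative fits, with adjusted p between 0.00494 and 0.228, and it was lost without any 1 of the 3 control libraries or without replicate 2 or 3 of SIN3B knockdown.

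**Figure D2:**
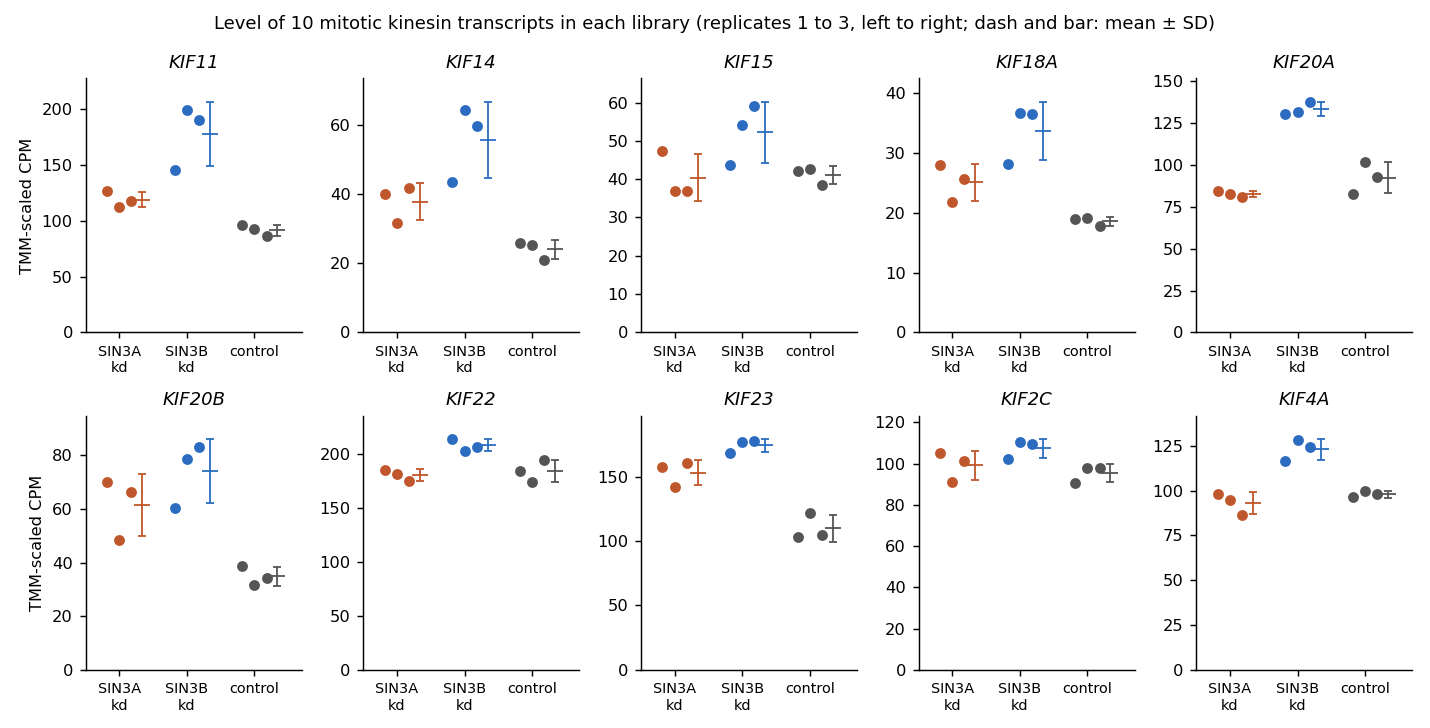
Level of each kinesin in TMM-scaled CPM in SIN3A knockdown (orange), SIN3B knockdown (blue) and control (grey) libraries, replicates 1 to 3 from left to right, with the mean ± SD beside them (n = 3). All SIN3B knockdown points lie above all control points in every panel, and SIN3A knockdown points do so for KIF11, KIF14, KIF18A, KIF20B and KIF23.

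KIF18A, KIF2C and KIF22 act on chromosomes and kinetochore microtubules. KIF18A, a motor that gathers at microtubule plus ends and damps chromosome oscillations, had 27.9, 21.7 and 25.7 CPM in SIN3A knockdown, 28.1, 36.7 and 36.5 CPM in SIN3B knockdown, and 18.9, 19.1 and 17.7 CPM in control libraries. Both knockdowns lay wholly above control. KIF18A rose by 0.43 ± 0.13 on the log2 scale after SIN3A knockdown (edgeR quasi-likelihood test, adjusted p = 0.0174) and by 0.86 ± 0.13 after SIN3B knockdown (adjusted p = 5.93e-05). Without control replicate 3 the SIN3A comparison gave an adjusted p of 0.0622.

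KIF2C (MCAK), a kinesin that takes microtubule ends apart and helps correct faulty attachments, had 105, 91.0 and 101 CPM in SIN3A knockdown, 102, 110 and 110 CPM in SIN3B knockdown, and 90.5, 97.9 and 98.1 CPM in control libraries. KIF22 (Kid), a DNA-binding kinesin that pushes chromosome arms away from the poles, had 186, 182 and 175 CPM in SIN3A knockdown, 214, 203 and 207 CPM in SIN3B knockdown, and 184, 175 and 195 CPM in control libraries. For both genes SIN3A knockdown overlapped control, and SIN3B knockdown lay wholly above control by a margin that was small beside the level. The log2 fold change of KIF2C after SIN3B knockdown was 0.17, with a 95% interval of 0.01 to 0.33 (edgeR quasi-likelihood test, adjusted p = 0.118). That of KIF22 was 0.17, with an interval of 0.04 to 0.31 (adjusted p = 0.0574). After SIN3A knockdown the intervals ran from -0.10 to 0.21 for KIF2C and from -0.17 to 0.10 for KIF22.

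KIF4A is a chromosome-bound motor that also travels with PRC1 to the midzone and limits its length. Its level was 98.4, 94.7 and 86.4 CPM in SIN3A knockdown, 117, 128 and 124 CPM in SIN3B knockdown, and 96.2, 100 and 98.0 CPM in control libraries. SIN3B knockdown stood apart from both other groups, which overlapped. KIF4A rose by 0.33 ± 0.07 after SIN3B knockdown (edgeR quasi-likelihood test, adjusted p = 0.00247), and the log2 fold change after SIN3A knockdown was -0.08 ± 0.07 (adjusted p = 0.509). Reads of its retrogene copy KIF4B would be hard to tell apart, and KIF4B averaged 0.175, 0.0533 and 0.164 CPM in SIN3A knockdown, SIN3B knockdown and control cells, below the floor.

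The kinesin-6 motors KIF20A, KIF20B and KIF23 work at the midzone, and their changes differed. KIF20A (MKLP2), which carries the chromosomal passenger complex to the midzone, had 84.4, 82.6 and 81.1 CPM in SIN3A knockdown, 130, 132 and 138 CPM in SIN3B knockdown, and 82.7, 102 and 93.0 CPM in control libraries. SIN3B knockdown libraries lay above all others, and SIN3A knockdown libraries lay among and below the control libraries. KIF20A rose by 0.53 ± 0.08 after SIN3B knockdown (edgeR quasi-likelihood test, adjusted p = 6.32e-05), and the value after SIN3A knockdown was -0.16 ± 0.08 (adjusted p = 0.148).

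KIF23 (MKLP1), which with RACGAP1 forms the centralspindlin complex, had 157, 142 and 160 CPM in SIN3A knockdown, 168, 177 and 178 CPM in SIN3B knockdown, and 103, 122 and 105 CPM in control libraries. Every knockdown library exceeded every control library. The rise was 0.48 ± 0.08 on the log2 scale after SIN3A knockdown (edgeR quasi-likelihood test, adjusted p = 0.000157) and 0.67 ± 0.08 after SIN3B knockdown (adjusted p = 3.68e-06). KIF20B (MPP1), a motor of late cytokinesis, had 69.9, 48.3 and 66.4 CPM in SIN3A knockdown, 60.4, 78.7 and 83.2 CPM in SIN3B knockdown, and 38.6, 31.4 and 34.4 CPM in control libraries. The knockdown groups overlapped each other and lay above control. KIF20B rose by 0.82 ± 0.13 after SIN3A knockdown (edgeR quasi-likelihood test, adjusted p = 0.000226) and by 1.09 ± 0.13 after SIN3B knockdown (adjusted p = 9.36e-06).

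KIF14 brings citron kinase to the midbody and is needed to finish cytokinesis. It had 39.9, 31.6 and 41.6 CPM in SIN3A knockdown, 43.3, 64.2 and 59.5 CPM in SIN3B knockdown, and 25.9, 25.2 and 20.9 CPM in control libraries. The groups did not overlap, although replicate 1 of SIN3B knockdown lay close to the highest SIN3A knockdown library. KIF14 rose by 0.65 ± 0.14 after SIN3A knockdown (edgeR quasi-likelihood test, adjusted p = 0.00213) and by 1.21 ± 0.14 after SIN3B knockdown (adjusted p = 3.52e-06), where it had the highest fold change of the 10.

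Against all genes tested, 5 of 10 kinesins were called higher after SIN3A knockdown where 12.2% of genes were, and 0 were called lower where 10.8% were. For the same 5, all 3 SIN3A knockdown libraries lay above all 3 control libraries, a pattern seen for 17.9% of genes, and for none did they all lie below, a pattern seen for 18.5%. After SIN3B knockdown 8 of 10 were called higher, beside 12% of all genes, and 0 lower, beside 11.6%. All 10 had every SIN3B knockdown library above every control library, beside 20.9% of all genes above and 22.1% below. The median log2 fold change of the 10 was 0.21 after SIN3A knockdown and 0.60 after SIN3B knockdown, and that of all genes was 0.00 and -0.02. No kinesin was called lower in either comparison, by the edgeR quasi-likelihood test, by DESeq2 or by limma, and at an unadjusted p under 0.05 the edgeR count was also 0; with upper-quartile factors in place of TMM, KIF20A was called lower after SIN3A knockdown.

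In SIN3A knockdown against SIN3B knockdown cells, KIF11, KIF14, KIF15, KIF18A, KIF20A, KIF22 and KIF4A were lower. None of the 10 was higher. The largest difference was that of KIF20A, at -0.69 ± 0.08 on the log2 scale (edgeR quasi-likelihood test, adjusted p = 1.68e-06), followed by KIF11 at -0.58 ± 0.09 (adjusted p = 9.43e-05) and KIF14 at -0.56 ± 0.13 (adjusted p = 0.00366). KIF18A at -0.43, KIF4A at -0.40, KIF15 at -0.37 and KIF22 at -0.20 were also called, with adjusted p of 0.0135, 0.000309, 0.0213 and 0.0226. KIF20B, KIF23 and KIF2C were not called, and the 95% intervals of their differences were -0.54 to 0.00, -0.34 to -0.03 and -0.27 to 0.04. All 3 SIN3A knockdown libraries lay below all 3 SIN3B knockdown libraries for 7 kinesins, beside 19.5% of all genes, while 19.8% of all genes lay wholly above. These 7 include KIF23, which was not called, and leave out KIF15, which was called although its groups overlapped. Of all genes, 12.6% were called lower and 14.5% higher. Without replicate 2 of SIN3B knockdown, or without replicate 3, the number of kinesins called lower was 4, since KIF15, KIF18A and KIF22 lost the call.

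**Figure D3:**
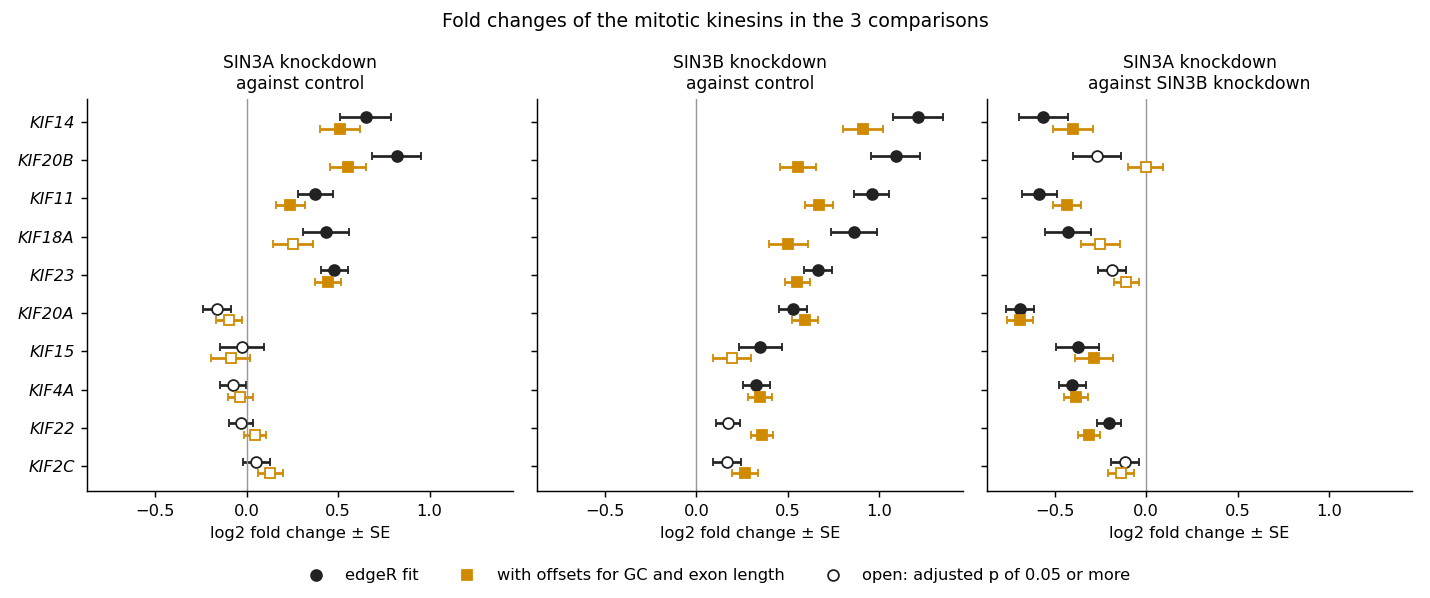
Log2 fold change ± SE of each kinesin in SIN3A knockdown against control (left), SIN3B knockdown against control (middle) and SIN3A knockdown against SIN3B knockdown (right), from the edgeR fit (black circles) and from a fit with GC and exon length offsets (orange squares). Open symbols have an adjusted p of 0.05 or more; KIF14, KIF20B, KIF11 and KIF18A move toward 0 with the offsets, and KIF22 and KIF2C move up in the middle panel.

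The largest rises after SIN3B knockdown, those of KIF14, KIF20B, KIF11 and KIF18A, were in transcripts of low GC content, but the rises did not follow GC content throughout. The transcripts of KIF20B, KIF18A, KIF11, KIF14 and KIF15 have a GC content of 34.2%, 37.0%, 38.3%, 38.3% and 41.2% and fall in the lowest of 5 equal GC classes of the tested protein-coding genes, which spans 31.3% to 41.7%. KIF23 and KIF4A, at 42.3% and 46.4%, fall in class 2, KIF20A and KIF2C, at 48.4% and 50.1%, in class 3, and KIF22, at 58.2%, in class 4. Across all 2693 genes of the lowest class, 41% were called higher after SIN3B knockdown, with a median log2 fold change of 0.29, while 2.45% were called higher in the highest class. After SIN3A knockdown 24% of the lowest class were called higher, with a median of 0.16. KIF11, KIF14, KIF18A and KIF20B lay above the median of their class in both knockdowns, and KIF15 at 0.35 lay near it after SIN3B knockdown. After SIN3A knockdown KIF15, at -0.03, lay below the class median of 0.16. KIF23 and KIF20A, with more GC than KIF15, rose more than it after SIN3B knockdown, by 0.67 and 0.53. The libraries of a group also differed in this respect: the median deviation of the lowest class from its group mean was -0.08, 0.05 and 0.03 on the log2 scale in SIN3B knockdown replicates 1, 2 and 3, and 0.01, -0.12 and 0.10 in SIN3A knockdown replicates 1, 2 and 3. Replicate 1 of SIN3B knockdown was the lowest of its group for 9 of the 10 kinesins, the 5 of that class and 4 with more GC, and the highest of its group for KIF22.

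**Figure D4:**
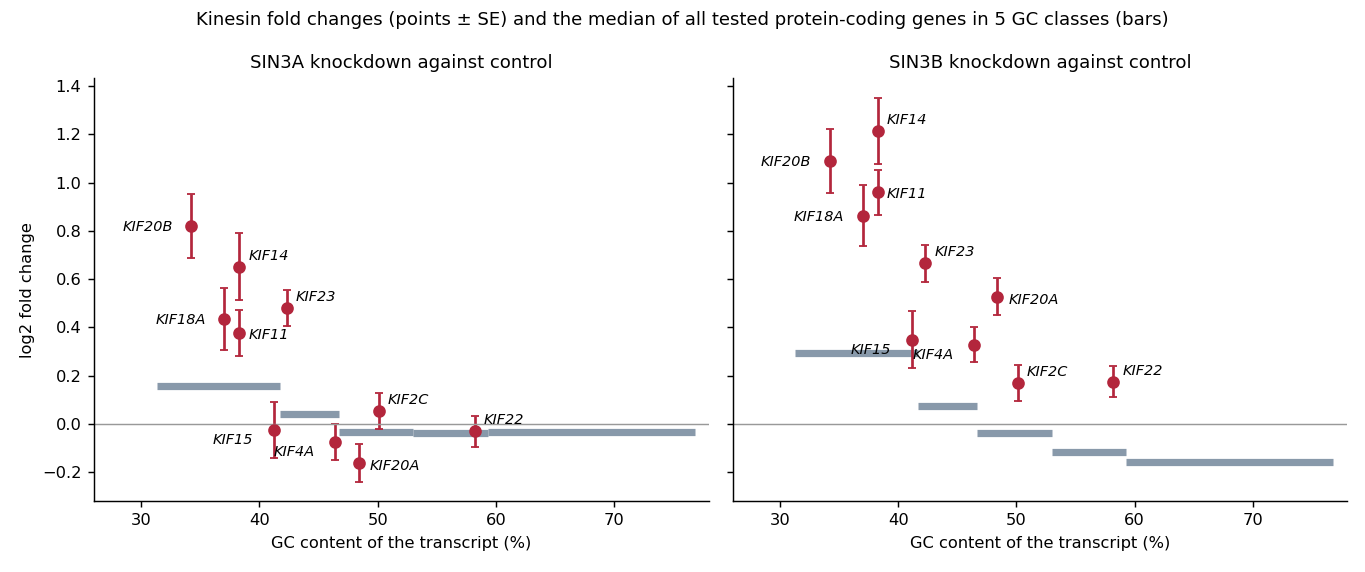
Log2 fold change ± SE of each kinesin (red points) against the GC content of its transcript in percent, with the median of all tested protein-coding genes in each GC class (grey bars), for SIN3A knockdown (left) and SIN3B knockdown (right) against control. The lowest GC class has medians of 0.16 and 0.29, and KIF14, KIF20B, KIF11 and KIF18A lie above both.

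With offsets that remove a smooth trend of counts with GC content and exon length in each library, 9 of 10 kinesins were called higher after SIN3B knockdown and 4 after SIN3A knockdown. In that fit 15.1% to 16.3% of the protein-coding genes in each GC class were called higher after SIN3B knockdown, and 16.7% to 21.7% after SIN3A knockdown. KIF20B then rose by 0.56 after SIN3B knockdown, KIF18A by 0.50, KIF11 by 0.67 and KIF14 by 0.91, each less than without the offsets. KIF22 rose by 0.36 (edgeR quasi-likelihood test with offsets, adjusted p = 0.000115) and KIF2C by 0.27 (adjusted p = 0.00746), and both had missed the threshold without them. KIF15 was at 0.20 and no longer called (adjusted p = 0.199). After SIN3A knockdown KIF11, KIF14, KIF20B and KIF23 remained called, and KIF18A was at 0.25 (adjusted p = 0.0912). In the direct comparison 6 kinesins were lower in SIN3A knockdown, beside 14.6% to 17.8% of the genes in each class, KIF18A lost the call, and the difference of KIF20B was -0.0015 (adjusted p = 0.995).

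Per kilobase of exon, KIF22 had the highest level of the 10 in every group, at 41.9 ± 1.23 CPM per kb in SIN3A knockdown, 48.3 ± 1.30 in SIN3B knockdown and 42.8 ± 2.34 in control cells (SD, n = 3). In control cells KIF2C at 26.2, KIF20A at 23.4, KIF4A at 21.6, KIF11 at 18.8 and KIF23 at 16.7 CPM per kb followed. KIF15 at 7.77, KIF20B at 5.08, KIF18A at 3.98 and KIF14 at 3.30 CPM per kb were lowest. The libraries of KIF2C overlapped those of KIF20A, those of KIF20A overlapped those of KIF4A, and those of KIF11 overlapped those of KIF23, so these neighbours were not separated. KIF11 held rank 3 in SIN3A knockdown cells, rank 2 in SIN3B knockdown cells and rank 5 in control cells. In SIN3A knockdown cells its libraries overlapped those of KIF2C at rank 2 and of KIF23 at rank 4, and in SIN3B knockdown cells those of KIF20A at rank 3. The deposited FPKM values, which are also per kilobase, gave another order. In control libraries they ran from 736 to 872 for KIF23, 423 to 441 for KIF4A and 138 to 153 for KIF22. KIF15 was lowest there, at 13.5 to 15.1. The ranks above hold only for the exon lengths used here, and the cause of the difference was not tested.

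Exons of 6 of the kinesins overlap genes on the opposite strand, and whether strand was used in counting is not given in the sources used here. The overlap is 561 of 4312 exon bases in KIF22, with the antisense gene AC009133.4. It is 231 bases in KIF23, 175 in KIF2C, 77 in KIF4A and 61 in KIF18A. KIF20A overlaps BRD8 by 132 bases and CDC23 by 68. These values carry that uncertainty.

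No kinesin held, in its annotated 3′ UTR, the 7-base words that an earlier scan of these same libraries had found most often in genes lower after each siRNA. Those words are GGTCTAA or AGGTCTA for SIN3A knockdown, present in 7.37% of the genes searched, and ACAGCCT or CAGCCTT for SIN3B knockdown, present in 23.7%. The words were chosen on these libraries, so their shares are a description. Of genes with a word, 25.5% were called lower after SIN3A knockdown and 21.5% after SIN3B knockdown, against 11.4% and 10.9% of genes without one.

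Other genes of the spindle moved in part with the 10 kinesins. The counts on this list and the next ones stand beside the shares of all genes called. These were 12% higher and 11.6% lower after SIN3B knockdown, and 12.2% and 10.8% after SIN3A knockdown. In the direct comparison they were 14.5% higher and 12.6% lower. Of 6 other spindle kinesins, 4 were tested, and after SIN3B knockdown 3 of them rose and none fell. CENPE, the kinetochore motor that brings chromosomes to the metaphase plate, averaged 79.9 ± 19.5 CPM in SIN3A knockdown, 86.8 ± 13.4 CPM in SIN3B knockdown and 42.9 ± 4.45 CPM in control cells. It rose by 0.89 and 1.02 on the log2 scale in the SIN3A and SIN3B knockdowns (edgeR quasi-likelihood test, adjusted p = 0.000837 and 0.000245). KIFC1, a minus-end motor that bundles spindle microtubules, rose by 0.32 and KIF2A, a depolymerase at spindle poles, by 0.30 after SIN3B knockdown. KIF18B, a partner of KIF2C at astral microtubule ends, fell by 0.33 after SIN3A knockdown, a call that was lost with limma. KIF18B and KIFC1 were lower in SIN3A knockdown than in SIN3B knockdown cells, by -0.49 and -0.38. KIF2B had no count in any library.

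Of 13 spindle assembly partners, 11 rose after SIN3B knockdown and none fell, and 2 rose after SIN3A knockdown. TTK, the checkpoint kinase MPS1, rose by 1.19 after SIN3B knockdown and by 0.81 after SIN3A knockdown, and ASPM, a spindle pole protein, by 1.08 and 0.57. TACC3, which stabilizes kinetochore fibres, rose by 0.59 after SIN3B knockdown. The median of the 13 was 0.48 after SIN3B knockdown and 0.06 after SIN3A knockdown. The number that rose after SIN3A knockdown was 4 with the GC and length offsets. All of the 11 that differed between the knockdowns were lower in SIN3A knockdown, among them TACC3 at -0.48, AURKA at -0.55 and HMMR at -0.76.

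Of 11 midzone and cytokinesis partners, 6 rose and 1 fell after SIN3B knockdown. ECT2, the exchange factor that KIF23 and RACGAP1 bring to the cell equator, averaged 112 ± 10.1 CPM in SIN3B knockdown and 59.2 ± 4.53 CPM in control cells and rose by 0.92 (edgeR quasi-likelihood test, adjusted p = 5.84e-07). ANLN, a scaffold of the contractile ring, rose by 0.84. PLK1, the mitotic kinase that docks on KIF20A at the midzone, went the other way, with 89.3 ± 7.14 CPM in SIN3B knockdown and 234 ± 6.09 CPM in control cells, a fall of 1.39 on the log2 scale (edgeR quasi-likelihood test, adjusted p = 4.93e-10). After SIN3A knockdown 2 of the 11 rose, CEP55 by 0.47 and ECT2 by 0.37, and 3 fell, AURKB by 0.33 among them. The number that rose was 1 with the GC and length offsets, and the number that fell was 1 with limma. In the direct comparison 6 were lower in SIN3A knockdown, among them CDCA8 at -0.73 and ANLN at -0.74, and PLK1 was higher by 1.27.

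Of 13 regulators of late cell cycle transcription on the MuvB list, 4 rose and 3 fell after SIN3A knockdown, with a median log2 fold change of 0.16, and 2 rose and 2 fell after SIN3B knockdown, with a median of -0.01. The number that rose after SIN3A knockdown was 1 without control replicate 2 and 2 without control replicate 3 or with upper-quartile factors, and the number that fell after SIN3B knockdown was 1 without control replicate 3. MYBL2, the activator that binds MuvB, averaged 504 ± 30.8 CPM in SIN3A knockdown, 209 ± 14.96 CPM in SIN3B knockdown and 414 ± 5.95 CPM in control cells. It fell by 0.99 on the log2 scale after SIN3B knockdown (edgeR quasi-likelihood test, adjusted p = 6.43e-09) and rose by 0.28 after SIN3A knockdown (adjusted p = 0.00518). FOXM1 fell by 0.35 after SIN3A knockdown (edgeR quasi-likelihood test, adjusted p = 0.00817). It was not called after SIN3B knockdown, at -0.24 (adjusted p = 0.0671). The MuvB subunits LIN9 and LIN54 rose by 0.68 and 0.62 after SIN3B knockdown. RBBP4, a histone-binding subunit that MuvB shares with SIN3 complexes, fell by 0.61 after SIN3A knockdown, and TFDP1, the dimer partner of E2F factors, by 0.32. In the direct comparison 3 were higher in SIN3A knockdown, MYBL2 by 1.27 among them, and 4 were lower, among them LIN9 at -0.54 and RBBP4 at -0.52.

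**Figure D5:**
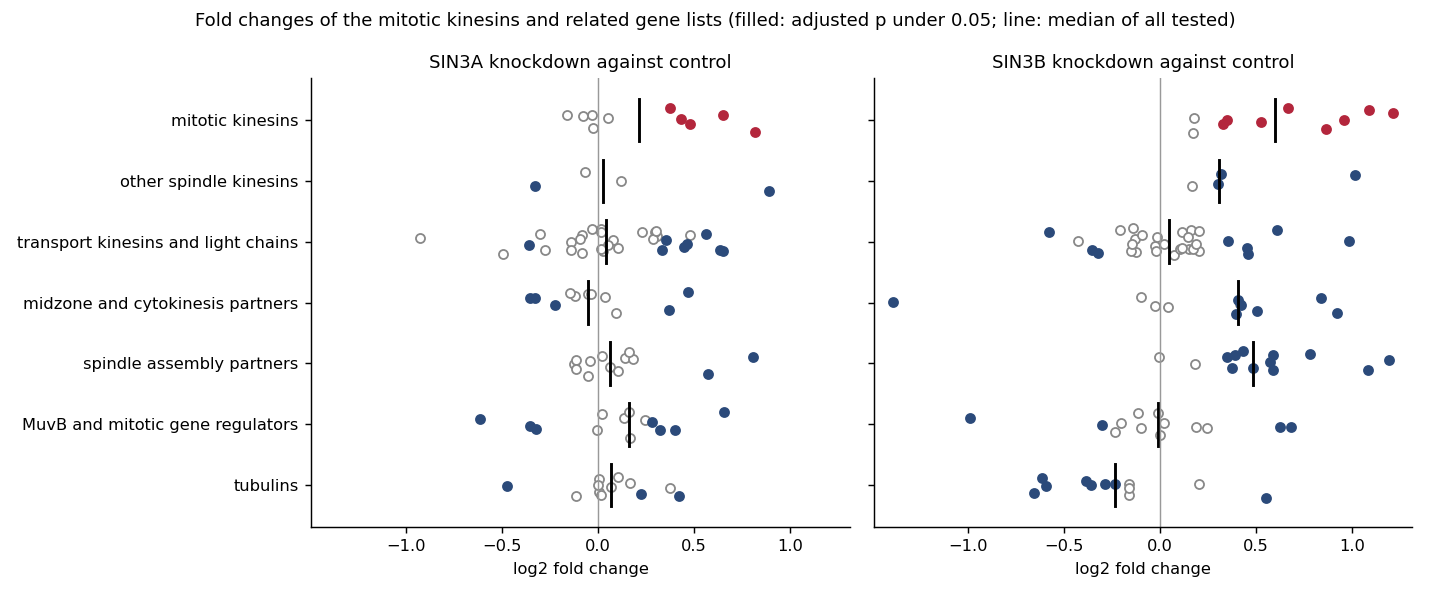
Log2 fold changes of the 10 mitotic kinesins (red when called) and of genes on 6 related lists (blue when called, open when not) in SIN3A knockdown (left) and SIN3B knockdown (right) against control, with the median of all tested genes of each list (black line). KIF19 and TUBB3, below 1 CPM in all groups, are counted in the medians and not drawn; the kinesin medians are 0.21 and 0.60, and that of the tubulins after SIN3B knockdown is -0.24.

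Of 13 tubulins, 7 fell and 1 rose after SIN3B knockdown, with a median of -0.24. The 7 were alpha or beta tubulins, the subunits of the microtubules on which the kinesins act. The 1 that rose was TUBD1, a delta tubulin, by 0.55. TUBB6 fell by 0.61 (edgeR quasi-likelihood test, adjusted p = 5.27e-05), TUBB by 0.36 and TUBB2B by 0.59. With the GC and length offsets 4 tubulins were called lower. After SIN3A knockdown 2 rose, TUBA1A by 0.42 and TUBB4B by 0.23, and TUBB2B fell by 0.47. The number that rose was 1 without control replicate 1 or 3, and 2 fell without SIN3A knockdown replicate 1. Against SIN3B knockdown, 8 tubulins were higher in SIN3A knockdown and none lower, with TUBA1A higher by 0.81, TUBB6 by 0.62 and TUBB4B by 0.39. Many tubulin genes are near-identical in sequence, so reads may be split among them.

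A list of other kinesins, many of them transport motors, with the light chains and KIFAP3, held 32 genes in all. Its medians were 0.04 and 0.05 in the SIN3A and SIN3B knockdowns. After SIN3B knockdown 5 rose and 3 fell, beside 12% and 11.6% of all genes. KIF5B, the ubiquitous heavy chain of conventional kinesin, rose by 0.98, KIF5C by 0.61 and KIF3B, a subunit of kinesin-2, by 0.45. After SIN3A knockdown 7 rose and 2 fell, with KIF1C up by 0.65, KIFC2 by 0.57 and KIF3B by 0.45. KIF19, 1 of the 2 that fell, had 60 counts in all libraries together. It averaged 0 CPM in SIN3A knockdown and 0.609 CPM in control cells, near the floor. Between the knockdowns 5 were higher in SIN3A knockdown, among them KIFC2 by 0.89 and KIF1C by 0.50, and 2 were lower, among them KIF5B at -0.63. The number that rose after SIN3B knockdown was 3 without control replicate 3 or SIN3B knockdown replicate 2 or 3, and 8 without SIN3A knockdown replicate 1. The number that fell after SIN3A knockdown was 1 without control replicate 3, and the number higher in the direct comparison was 2 or 3 without SIN3A knockdown replicate 2 or 3 or SIN3B knockdown replicate 2 or 3.

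Of 12 genes of the G1/S transition, 1 rose and 2 fell after SIN3B knockdown, beside 12% and 11.6% of all genes. RRM2, a subunit of ribonucleotide reductase, fell by 1.15 and CCNE2 by 0.43, and PCNA rose by 0.23. After SIN3A knockdown 2 rose, GINS2 by 0.35 and CDT1 by 0.25, and none fell. In the direct comparison 7 were higher in SIN3A knockdown and none lower, with RRM2 higher by 1.15, CDT1 by 0.40, CDC6 by 0.36 and GINS2 by 0.38. The G1/S counts moved when single libraries were left out. After SIN3A knockdown 1 gene rose without control replicate 1 or 2, 4 rose with the GC and length offsets, and 1 fell without SIN3A knockdown replicate 1. After SIN3B knockdown none rose when any 1 of the control or SIN3B knockdown libraries was left out. The number that fell was 1 without control replicate 1 or SIN3B knockdown replicate 2, 5 without SIN3A knockdown replicate 1 and 4 without SIN3A knockdown replicate 3. Between the knockdowns 4 were higher in SIN3A knockdown without SIN3B knockdown replicate 2, and 1 was lower without SIN3A knockdown replicate 1.

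The kinesins were compared with the mean of their 10 standardised profiles over the 9 libraries, of which each kinesin is itself a part. Pearson's r with that mean ran from 0.744 for KIF22 to 0.977 for KIF11, and it describes mainly the differences between the 3 groups. Of 12804 other genes with a mean log2 CPM above 1, the 5 with the closest profiles were BRCA2 at 0.985, MORF4L1 at 0.981, KIF5B at 0.981, PPP4R3B at 0.980 and CALM2 at 0.979. BRCA2 averaged 25.3 ± 4.79 CPM in SIN3A knockdown, 43.2 ± 7.55 CPM in SIN3B knockdown and 21.6 ± 1.15 CPM in control cells. The GC content of these 5 genes lies between 36.3% for BRCA2 and 44.4% for CALM2.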

How the data were processed

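Read counts per Ensembl gene and FPKM values were deposited by the authors for 9 poly-A stranded HEK293T libraries. Per the submitters' processing notes, Trimmomatic 0.36, HISAT2 2.1.0, HTSeq and DESeq2 1.20.0 were used with GRCh38. The deposited FPKM values were used only in an alternative and beside the levels per kilobase.

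Counts were fitted with edgeR 4.0.16 (R 4.3.3): TMM factors, filterByExpr with a minimum count of 10 and a minimum total of 15, a robust quasi-likelihood fit of all 9 libraries (6 residual degrees of freedom), and two-sided p-values adjusted by Benjamini-Hochberg over 16686 genes with a threshold of 0.05. A gene past it is called higher or lower. The procedure was tested on simulated data. The SE is the log2 fold change divided by the square root of F, and all 95% intervals are from the fit.

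GENCODE 29 gave symbols (all 58734 IDs matched), exon length, GC content and overlaps. Promoter windows are those of RefSeq for GRCh38.p14. Proteins were not analysed here. Members and lists were chosen with earlier results of these data known. From each other list, up to 3 called genes with the lowest adjusted p per comparison are named. Among the others named besides are KIF19 and FOXM1.

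Alternatives were RLE and upper-quartile factors, no filter, DESeq2 1.42.0, limma 3.58.1 on log2(FPKM + 1) and log2(FPKM + 0.1), 6-library fits, the replicate number as a block, counts divided by 4, GC and length offsets with and without the block, each library left out, and, chosen after seeing the data, no robust option. Figures were drawn with matplotlib 3.10.9.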

Additional observations from a re-analysis of the deposited data

How the results depend on the processing

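Across the 21 alternatives KIF11, KIF14, KIF20B and KIF23 were called higher in both knockdowns, and KIF18A, KIF20A and KIF4A after SIN3B knockdown, in every one. Upper-quartile factors gave 1352 genes higher and 2313 lower after SIN3A knockdown, so 36.9% of calls were higher instead of 52.9%, and 1 kinesin lower, KIF20A at -0.23 (edgeR quasi-likelihood test, adjusted p = 0.0411). They also turned KIF2C in that comparison to -0.016. Leaving out 1 library at a time, the genes called after SIN3A knockdown ranged from 1321 (without control replicate 2) to 2269 higher and from 1189 (without control replicate 3) to 1740 lower, and those called higher after SIN3B knockdown from 1331 (without control replicate 2) to 2463. In those fits without 1 library, kinesins lower in SIN3A than in SIN3B knockdown ranged from 4 to 7. In the same comparison KIF23 was also called lower with upper-quartile factors and with counts divided by 4. KIF20B was also called lower there with no filter. Uncalled values near 0 in the SIN3A comparison changed sign. KIF22 was at 0.045 with GC and length offsets, with or without the block. Leaving out 1 library at a time, KIF15 ranged from -0.139 to 0.038, above 0 without SIN3A knockdown replicate 2 or 3, and KIF22 from -0.074 to 0.023, above 0 without control replicate 3. Same-numbered libraries of different groups had correlations of their deviations between -0.03 and 0.04, and differently numbered ones between -0.05 and 0.04. No sign of pairing by number was seen, but such correlations cannot show that the libraries were unpaired. With the replicate number as a block, 5 kinesins were higher after SIN3A knockdown, 7 after SIN3B knockdown, where KIF15 at 0.35 had an adjusted p of 0.0558, and 7 were lower in the direct comparison. The causes of these moves were not tested. After SIN3B knockdown KIF22 and KIF2C were called in 7 and 4 of the 21 alternatives.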
